A study of Homo sapiens with 6 samples.

Results

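The 8 genes described here encode enzymes of cholesterol synthesis: HMGCS1, MVK, FDPS, FDFT1, SQLE, LSS, CYP51A1 and DHCR7. They were chosen by name, and each matched 1 row among the 32862 genes of the deposited table. The samples were SH-SY5Y cells, a human neuroblastoma line, all untreated and grown in serum-containing medium. RNA was captured on oligo(dT) beads and sequenced from 3 libraries of OTULIN KO cells, in which the deubiquitinase gene OTULIN had been disrupted with CRISPR-Cas9, and 3 libraries of WT cells. The labels give batch 1 for all 6 libraries. They do not say whether the KO cells were 1 clone, nor whether the replicates came from separate cultures. The p-values given here therefore rest on library-to-library spread alone, and that spread may be technical.

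Cholesterol is built from acetyl-CoA in the mevalonate pathway, in which HMGCS1 makes the precursor of mevalonate and MVK phosphorylates mevalonate. FDPS joins isoprene units into farnesyl diphosphate, which also feeds protein prenylation, dolichol and ubiquinone. FDFT1 commits farnesyl diphosphate to squalene, SQLE oxidises squalene, LSS closes the sterol rings to lanosterol, CYP51A1 removes a methyl group from lanosterol, and DHCR7 makes cholesterol from 7-dehydrocholesterol. The transcription factor SREBP2 raises these genes together when sterols are scarce, with NF-Y, which binds CCAAT, and Sp1, which binds GGGCGG, as known partners. Cells of the nervous system make most of their cholesterol themselves.

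Promoters are shown as regulatory windows that the members share or differ in. All 8 genes were at 0 counts in every KO library, as were 88.9% of all genes in the table. A link between these windows and the KO counts was not tested. RefSeq (GRCh38.p14) gave windows of 300 bases, from 250 before to 50 after a transcript start, for 6 of the 8 genes, with 2 windows each for HMGCS1 and DHCR7. The 4 below are those of the most and the least abundant member in WT (FDPS and MVK), of the enzyme at the head of the pathway (HMGCS1, the window that begins farther upstream) and of the one gene among the 6 without CCAAT (CYP51A1). Capitals mark CCAAT and GGGCGG on either strand, so that ATTGG and CCGCCC are the same motifs read from the other strand. The FDPS window is chr1:155308616-155308915 (plus strand), the MVK window chr12:109573544-109573843 (plus), the HMGCS1 window chr5:43313363-43313662 (minus) and the CYP51A1 window chr7:92134428-92134727 (minus).
FDPS: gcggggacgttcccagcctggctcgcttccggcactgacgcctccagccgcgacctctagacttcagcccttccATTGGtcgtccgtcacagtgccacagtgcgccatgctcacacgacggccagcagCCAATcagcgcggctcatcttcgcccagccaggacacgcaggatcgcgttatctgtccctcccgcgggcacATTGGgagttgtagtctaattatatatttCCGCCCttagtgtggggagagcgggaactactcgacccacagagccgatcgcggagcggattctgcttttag
MVK: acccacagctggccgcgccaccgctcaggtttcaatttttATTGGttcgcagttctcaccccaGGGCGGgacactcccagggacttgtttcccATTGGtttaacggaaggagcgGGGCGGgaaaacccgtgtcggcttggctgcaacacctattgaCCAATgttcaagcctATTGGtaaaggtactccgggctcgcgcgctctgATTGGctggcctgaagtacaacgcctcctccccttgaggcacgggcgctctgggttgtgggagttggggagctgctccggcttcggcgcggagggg
HMGCS1: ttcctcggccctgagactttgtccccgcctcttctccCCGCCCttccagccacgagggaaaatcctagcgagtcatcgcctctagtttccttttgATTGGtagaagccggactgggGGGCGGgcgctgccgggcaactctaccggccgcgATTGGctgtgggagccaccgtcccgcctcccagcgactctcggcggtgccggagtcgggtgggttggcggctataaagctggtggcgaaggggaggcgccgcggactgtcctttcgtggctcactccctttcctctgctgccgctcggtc
CYP51A1: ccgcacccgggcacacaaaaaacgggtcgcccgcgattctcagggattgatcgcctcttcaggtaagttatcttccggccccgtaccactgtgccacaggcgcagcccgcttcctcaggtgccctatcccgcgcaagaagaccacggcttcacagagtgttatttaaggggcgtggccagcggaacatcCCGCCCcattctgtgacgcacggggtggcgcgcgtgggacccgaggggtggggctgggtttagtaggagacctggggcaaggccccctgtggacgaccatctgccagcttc

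CCAAT stood in 5 of the 8 windows and in 5 of the 6 genes, against 34.6% of all 35116 RefSeq windows of this length. MVK held 5 such sites, the most in any of the 8 windows, at 210, 157, 94, 79 and 46 bases before the start. Of all windows, 0.359% held at least 5. FDPS held 3 at 176, 122 and 51 bases, HMGCS1 2 at 155 and 100, DHCR7 2 at 94 and 48, and LSS 1 at 150. GGGCGG stood in 7 of the 8 windows and in all 6 genes, against 45.0% of all windows, and LSS held 7 sites of it. A core of the sterol regulatory element, TCACNCCAC, stood in 0 of the 8 windows and in 1.13% of all windows. No 2 marked sites overlapped. These are matches of letters in short windows and do not show binding.

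In WT cells every one of the 8 genes was expressed, and their levels per transcript length spanned a 21.4-fold range from MVK to FDPS. FPKM, fragments scaled to transcript length and library depth as deposited by the authors, is used here for levels between genes. HMGCS1 (ENSG00000112972, chr5:43287470-43313512, minus strand), MVK (ENSG00000110921, chr12:109573255-109597270, plus) and FDPS (ENSG00000160752, chr1:155308748-155320666, plus) are given with the hg38 positions of the table. In the mevalonate stage FDPS was at 37.1, 32.8 and 36.02 FPKM in the 3 WT libraries, 35.3 ± 2.2 (SD, n = 3), and 91.2% of the 10820 genes tested (those averaging 1 FPKM or more over all 6 libraries) lay below it. HMGCS1 was at 4.42, 5.46 and 5.61 FPKM, 5.16 ± 0.65, so WT replicate 1 was the low library. MVK was at 1.85, 1.57 and 1.52 FPKM, 1.65 ± 0.18, with WT replicate 1 the high library. It was not itself among the genes tested, of which 2.84% lay below it. A gene absent from KO passed that filter only with a high enough WT level. The share therefore does not rank MVK among all genes detected in WT.

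The 3 enzymes that make squalene and turn it into lanosterol lay between 9.46 and 12.5 FPKM in WT. Their genes are FDFT1 (ENSG00000079459, chr8:11795573-11839395, plus), SQLE (ENSG00000104549, chr8:124998497-125022283, plus) and LSS (ENSG00000160285, chr21:46188141-46228822, minus). FDFT1 was at 11.2, 11.7 and 11.6 FPKM, 11.5 ± 0.23. SQLE was at 12.1, 11.5 and 12.5 FPKM, 12.0 ± 0.54. LSS was at 9.50, 9.46 and 9.83 FPKM, 9.60 ± 0.20, below both in each library. CYP51A1 (ENSG00000001630, chr7:92084987-92134503, minus), a cytochrome P450, was at 10.8, 11.4 and 12.8 FPKM, 11.7 ± 1.0, highest in WT replicate 3. DHCR7 (ENSG00000172893, chr11:71428193-71452868, minus), the enzyme that is deficient in Smith-Lemli-Opitz syndrome, was at 5.61, 5.66 and 5.04 FPKM, 5.44 ± 0.35, lowest in WT replicate 3.

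**Figure D1:**
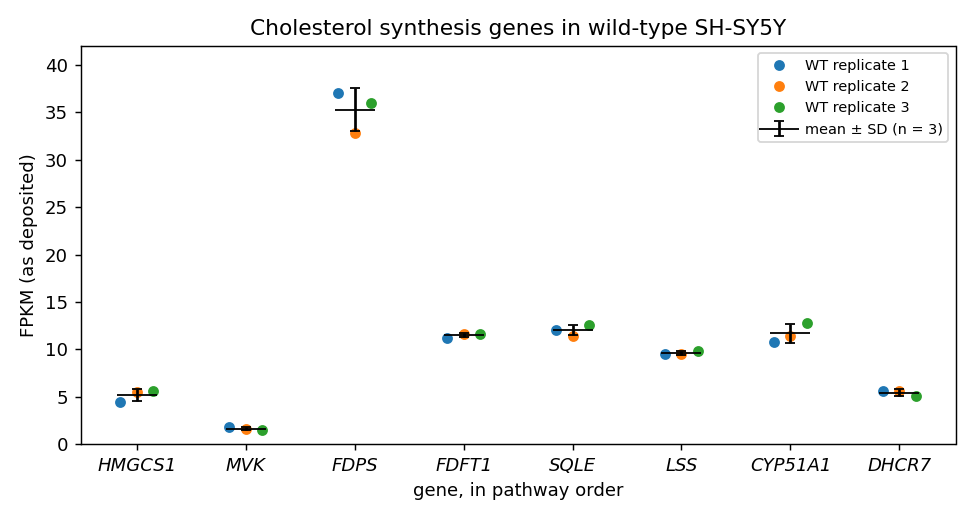
WT levels of the 8 genes in FPKM as deposited (vertical axis), in pathway order (horizontal axis). Points are the 3 WT libraries and bars the mean ± SD; FDPS, at 32.8 to 37.1 FPKM, lies above the other 7 genes, which lie between 1.52 and 12.8.

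The order of mean WT FPKM was FDPS, SQLE, CYP51A1, FDFT1, LSS, DHCR7, HMGCS1 and MVK. SQLE, CYP51A1 and FDFT1 did not differ beyond their spread, since the ranges over libraries overlapped and the ratios of neighbouring means were 1.03 and 1.015. DHCR7 and HMGCS1 also overlapped, at a ratio of 1.05. The steps from FDPS to SQLE (2.93-fold), FDFT1 to LSS (1.20-fold), LSS to DHCR7 (1.76-fold) and HMGCS1 to MVK (3.13-fold) held in all 3 WT libraries. With counts divided by the longest GENCODE 29 transcript in place of the authors' lengths, FDFT1 moved ahead of SQLE and CYP51A1, LSS and DHCR7 became nearly equal at 15.4 and 15.3 CPM per kilobase, and FDPS and MVK stayed the highest and the lowest.

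The genes did not share one high library in WT. On the CPM scale (counts scaled to the library total), which compares 1 gene between libraries, HMGCS1 had a coefficient of variation of 12.7%, MVK of 10.7% and CYP51A1 of 8.96%. The other 5 genes varied by 2.09% (FDFT1) to 6.34% (FDPS), and the median over all tested genes was 6.51%. Counting error alone would give 1.06% for FDPS and 3.13% for MVK. HMGCS1 and CYP51A1 were lowest in WT replicate 1, where MVK and FDPS were highest. As shares of a library, the 8 genes together held 486, 476 and 500 CPM, 487 ± 12 (SD, n = 3).

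The comparison of KO with WT asks which transcripts change when OTULIN is lost. No count of any of the 8 genes was seen in the KO libraries, while the WT libraries held 30215, 30619 and 30870 counts of them. The KO libraries were shallow: they held 725827 to 862932 counts with 2306 to 2567 genes detected, against 61772795 to 64352333 counts and 27453 to 27958 genes in WT, a ratio of mean depths of 78.5. At the WT share, the 8 genes together would have given 394, 420 and 354 counts in the 3 KO libraries, and 1168 in all. Taking 3 counts over the 2398362 counts of the KO group as the limit that a count of 0 allows (1.25 CPM), the sum of the 8 genes was at least 389-fold lower in KO. That bound takes the counts as deposited; if all reads of a locus that overlaps CYP51A1, described further on, were given to CYP51A1, the sum would be 10.3-fold lower. Floors and intervals given here cover counting error only. In bulk RNA, fewer cells of a type and less RNA per cell cannot be told apart.

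Of the mevalonate enzymes, FDPS had 0 counts in each KO library and 9347, 8556 and 9042 in WT, 143 ± 9.1 CPM, and was at least 114-fold lower. HMGCS1 had 0 counts in each KO library and 1987, 2540 and 2513 in WT, 37.4 ± 4.7 CPM, at least 29.9-fold lower. MVK had 0 counts in each KO library and 1139, 1000 and 932 in WT, 16.3 ± 1.7 CPM, at least 13.0-fold lower. At its WT share MVK would have given 11.8 to 14.1 counts per KO library, the smallest number among the 8, so that its limit is the widest.

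Among the squalene enzymes, LSS had 0 counts in each KO library and 4663, 4812 and 4803 in WT, 75.8 ± 1.7 CPM, at least 60.6-fold lower. FDFT1 had 0 counts in each KO library and 3876, 4161 and 3988 in WT, 63.8 ± 1.3 CPM, at least 51.0-fold lower. SQLE, the target of the antifungal terbinafine in fungi, had 0 counts in each KO library and 3530, 3464 and 3641 in WT, 56.5 ± 2.6 CPM, at least 45.2-fold lower. Past lanosterol, CYP51A1 had 0 counts in each KO library and 3053, 3347 and 3607 in WT, 53.2 ± 4.8 CPM, at least 42.5-fold lower as deposited and 1.16-fold lower with the reads of that overlapping locus. DHCR7 had 0 counts in each KO library and 2620, 2739 and 2344 in WT, 40.9 ± 2.5 CPM, at least 32.7-fold lower. For all 8 genes the KO and WT values did not overlap, as was so, with KO below WT, for 88.2% of the genes tested.

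**Figure D2:**
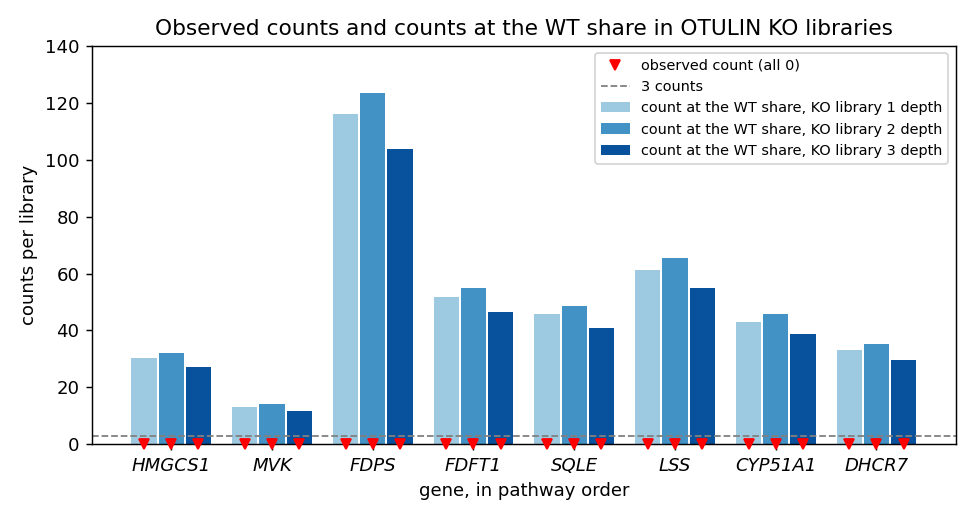
Counts in the 3 OTULIN KO libraries (vertical axis) for the 8 genes in pathway order (horizontal axis). Red triangles are the observed counts, all 0, blue bars the count each library would hold at the mean WT share (11.8 for MVK in KO replicate 3 to 124 for FDPS in KO replicate 2), and the dashed line marks 3 counts.

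The test placed 7 genes lower in KO, but most tested genes were placed there too. With edgeR's quasi-likelihood test over those 10820 genes, the 7 members that passed this filter had Benjamini-Hochberg adjusted p between 1.2e-05 (LSS and FDFT1) and 8.3e-05 (HMGCS1). All 7 passed only through their WT values. Of all genes tested, 88.0% were called lower and 7.63% higher. MVK, at a mean of 0.825 FPKM over the 6 libraries, was under the filter; in the fit without it the edgeR adjusted p of MVK was 0.00039, where 42.6% of 32862 genes were called lower. Absence from all 3 KO libraries was also common, at 71.3% of the genes tested and 88.9% of all genes in the table. Among tested genes with a WT level of 30 to 100 CPM, where 6 of the 8 genes lie, 73.4% of 4529 had no KO count. In the range of MVK (10 to 30 CPM) this share was 84.9% of 2769 genes, and in that of FDPS (100 to 300 CPM) 56.1% of 1743. The depth and make-up of the libraries moved with the genotype label in all 6, so loss of OTULIN and these properties of the libraries cannot be told apart.

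**Figure D3:**
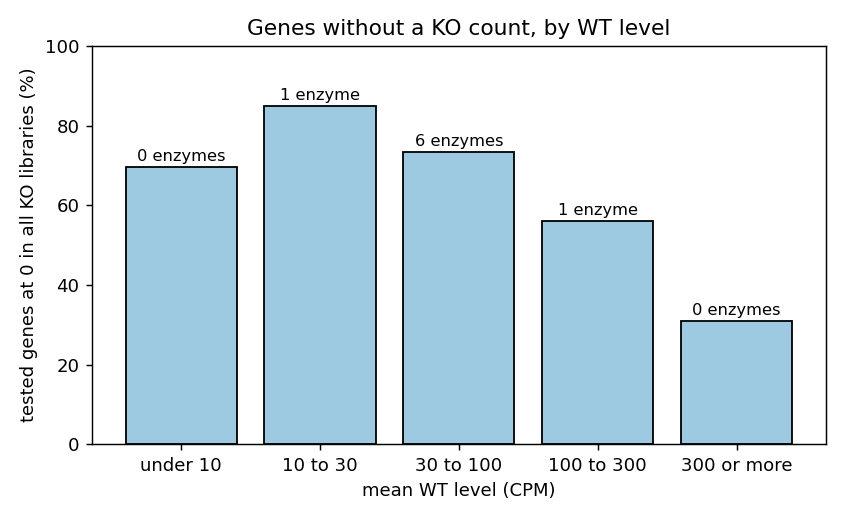
Share of tested genes with 0 counts in all 3 KO libraries (vertical axis, percent) by mean WT level in CPM (horizontal axis); labels give how many of the 8 enzymes have a WT level in each range (MVK, in the range of 10 to 30, was itself under the filter). The share is 69.7% under 10 CPM and highest at 10 to 30 CPM, at 84.9%, and falls from there to 31.0% at 300 CPM or more. The enzymes lie in ranges where it was 56.1% to 84.9%.

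The labelled cell type was checked against 10 marker genes of adrenergic neuroblastoma. Their summed level was 6255 to 7149 CPM in WT and 674 to 745 CPM in KO. In KO, 4 of the 10 were detected, among them HAND2, GATA2 and ISL1, and PHOX2A, GATA3, DBH, TH, CHGA and CHGB were at 0. Summed levels in KO and WT were 46.4 to 134 and 161 to 181 CPM for 6 fibroblast markers, 4.94 to 28.97 and 7.43 to 23.1 CPM for 5 epithelial markers, 0 to 6.89 and 1.46 to 2.17 CPM for the 4 of 5 blood markers that were in the table, and 0 to 26.7 and 0.0777 to 1.41 CPM for 6 markers of glia and endothelium. The fibroblast markers, detailed after their values were seen, went different ways. COL1A1 stood higher in KO, at 47.8 ± 27 against 9.37 ± 2.1 CPM (log2 change 1.92, SE 0.37, edgeR adjusted p = 0.0019). COL3A1 was called lower, at 24.2 ± 16 against 48.8 ± 2.5 CPM (log2 change -1.45, SE 0.30, edgeR adjusted p = 0.0029). COL1A2 was not called (log2 change -0.11, SE 0.47, edgeR adjusted p = 0.82). PDGFRA, DCN and LUM were at 0 in KO, with 91.0 ± 7.1, 5.06 ± 0.15 and 2.42 ± 0.52 CPM in WT. Fibroblast markers were counted in KO for 3 of 6 genes, epithelial for 4 of 5, blood for 2 of 4, and glia and endothelium for 3 of 6. Of 5 hepatocyte markers, 2 were found in the table, both at 0 in KO and at 0 to 0.295 CPM in WT. The part of these cell types in the results was not tested.

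Copies of the 8 genes were too low in WT to be seen at the KO depth. The table held 7 pseudogenes named after FDPS (FDPSP1, FDPSP2, FDPSP4, FDPSP7 and FDPSP8) or CYP51A1 (CYP51A1P1 and CYP51A1P2), and all were at 0 in KO and at no more than 35 counts in any WT library, which would give 0.026 to 1.06 counts in the KO group at the WT share. CYP51A1-AS1 and DHCR7-DT, an antisense and a divergent transcript, were at 0 in KO where 0.48 and 6.81 counts would stand at the WT share, with 205, 141 and 187 counts of DHCR7-DT in WT. The strandedness of counting is not given in the sources used here, so members that overlap genes of the other strand can share reads with them. CYP51A1 overlaps AKAP9, a kinase-anchoring protein gene, over 25687 bases, and FDPS overlaps RUSC1-AS1 over 3804 bases, and both neighbours were at 0 in KO. Of 12 rows that overlap a member or lie within 1000 bases of it, 10 had no KO count, a share near the 88.9% of all genes in the table. For 4 of these 10 the WT share would have given under 3 counts in the KO group.

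Both rows that did have KO counts are given here, chosen after their values were seen. MMAB, which makes adenosylcobalamin, overlaps the start of MVK head to head over 326 bases. It had 0, 0 and 4 counts in KO and 1920, 1733 and 1579 in WT, and was 15.1-fold lower (log2 change -4.45, SE 0.59, edgeR adjusted p = 0.00027). Without KO replicate 3 no KO count of it was left.

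The other was a protein-coding locus without a symbol, ENSG00000289027 (chromosome 7, 92112176 to 92245924, minus strand, hg38). It lies on the same strand as CYP51A1 and covers part of that gene, all of LRRD1 and nearly all of KRIT1. It held 54, 39 and 22 counts in the KO libraries and 112, 133 and 73 in WT, so that every KO library was above every WT library on the CPM scale. Its level was 47.4 ± 18 CPM in KO and 1.68 ± 0.45 CPM in WT (SD, n = 3 each), 28.2-fold higher in KO (log2 change 4.42, SE 0.36, edgeR adjusted p = 2.7e-05; 7.63% of tested genes were called higher). The locus overlaps 22328 bases of CYP51A1 (45.1% of the CYP51A1 span in the table), and the terms deposited for it include monooxygenase activity and heme binding. KRIT1, which gives 99.6% of its span to the same locus, had 4911, 6196 and 5737 counts in WT and 0 in each KO library. LRRD1 was at 0 in KO, with 0, 5 and 13 counts in WT. How reads were shared out between these overlapping rows is not given in the sources used here, so the 0 of CYP51A1 in KO does not show that no read came from the stretch it shares with this locus. The 115 KO counts of the locus stand beside 127 that CYP51A1 and 214 that KRIT1 would have given at their WT shares. If all reads of the locus were given to CYP51A1, its KO level would be 47.4 ± 18 CPM and its WT level 54.8 ± 4.4 CPM. Which of these genes the reads came from was not tested. A same-strand overlapping row with KO counts was rare: it was found for 169 of the 7716 tested genes at 0 in KO (2.19%), and, among the 51 enzymes and list genes at 0, for CYP51A1 and for TM7SF2 (with VPS51, 4 KO counts).

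Most of the other genes of sterol, isoprenoid and fatty acid metabolism were called lower and were at 0 in KO, as were most tested genes. Both shares lay above those of all tested genes, a difference that was not tested. Across 52 genes in 6 lists, of synthesis, regulation, uptake and fatty acid synthesis, 46 were tested, of which 45 were called lower, 0 higher and 1 was not called, against 88.0% lower among all tested genes, and 37 of the 46 (80.4%) were at 0 in all KO libraries, against 71.3%. Those 37 passed the filter only through their WT values. When genes at 0 were set to the limit of 3 counts in the KO group and genes with a KO count kept their fitted change, the lists' median log2 change came to -4.71. That of all tested genes came to -4.61. The fitted medians, which depend on the prior count, were -12.63 and -12.42. For a gene at 0 the limit is set by its WT level alone, and most of these genes were at 0. These medians therefore reflect WT levels and do not compare the lists with all tested genes in KO. The 52 genes held 109 counts in the KO group, where their WT share would have given 7498. Over all genes in the table these numbers are equal by construction.

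Of 7 other genes of the mevalonate stage, 6 were tested and all 6 were called lower, where 88.0% of all tested genes were. PMVK, the kinase after MVK, was at 32.5 ± 1.3 FPKM in WT and at least 28.4-fold lower in KO. ACAT2, which condenses acetyl-CoA, was at 23.7 ± 0.26 FPKM and at least 54.6-fold lower. GGPS1, which makes geranylgeranyl diphosphate, was at 14.6 ± 0.17 FPKM and at least 48.5-fold lower, and the isomerase gene IDI1 at 8.28 ± 0.79 FPKM and at least 31.0-fold lower.

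All 8 other genes of the steps after squalene were at 0 in KO, and the 7 tested were called lower, where 88.9% of all genes were at 0 and 88.0% of tested genes were lower. LBR, a sterol reductase that also anchors chromatin to the nuclear lamina, was at 27.2 ± 1.6 FPKM in WT and at least 135-fold lower. EBP was at 15.4 ± 0.45 FPKM and at least 23.8-fold lower, and NSDHL at 8.55 ± 0.21 and at least 14.9-fold. The 9 genes of the isoprenoid branches, all tested, were all at 0 in KO, where 71.3% of all tested genes were. NUS1, a dolichol synthesis subunit, was at least 61.2-fold lower, FNTA and FNTB, the farnesyltransferase subunits, at least 76.2-fold and 23.5-fold, and PDSS1, of ubiquinone synthesis, at least 19.5-fold. The pathway annotation deposited by the authors, looked at after the values were seen, gave 0 of 15 genes of steroid biosynthesis and 1 of 20 of terpenoid backbone biosynthesis with a KO count when the 8 enzymes were left out, where 88.9% of all genes in the table had none.

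Of the 7 genes that control SREBP, all were tested and called lower (88.0% of all tested genes), and 2 had KO counts, so that 71.4% were at 0 against 71.3% of all tested genes. SREBF2, which encodes SREBP2, was at 13.0 ± 0.22 FPKM in WT and had 0, 4 and 0 counts in KO, 74.0-fold lower in CPM. MBTPS1, the protease that makes the first cut in SREBPs, had 0, 24 and 0 counts in KO, at 118 ± 4.4 CPM in WT, 12.8-fold lower. Without KO replicate 2 both were at 0 in KO. SCAP, the escort protein, was at least 92.2-fold lower and MBTPS2, the other protease, at least 59.8-fold.

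Genes of cholesterol uptake, transport and storage held the one gene that was not called. Of 12 listed, 8 were tested and 7 were called lower, a share near the 88.0% of all tested genes. MYLIP, a sterol-induced ubiquitin ligase, had 6, 6 and 8 counts in KO and 290, 289 and 241 in WT. Its level was 8.46 ± 2.2 CPM in KO and 4.35 ± 0.40 in WT, with every KO library above every WT library (log2 change 0.55, SE 0.21, edgeR adjusted p = 0.12). That value was 0.94 with library totals alone (edgeR adjusted p = 0.010) and -0.017 with median-ratio scaling (0.97). The median change of the 3104 tested genes with a KO count moved alike, from -2.24 to -1.84 and -2.79, and MYLIP lay 2.77 to 2.79 above it in each of these 3 scalings. A change of scaling shifts all genes with counts by nearly the same amount. The steady distance therefore follows from the method and does not test the place of MYLIP.

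NPC1, a lysosomal cholesterol transporter, was 11.1-fold lower on 0, 0 and 4 KO counts, all of them from KO replicate 3. NPC2, SOAT1, STARD4 and NR1H2 were at 0 in KO and at least 9.88-fold, 19.4-fold, 24.2-fold and 33.1-fold lower.

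Fatty acid synthesis, driven by the related SREBP1, was the most abundant list in WT, at 1439 to 1517 CPM in sum, and at 12.7 to 22.04 CPM in KO. All 9 genes were called lower, where 88.0% of all tested genes were. FASN, fatty acid synthase, had 13, 11 and 8 counts in KO and 24349, 21341 and 19576 in WT, 13.3 ± 2.6 against 347 ± 39 CPM, 26.1-fold lower (log2 change -5.09, SE 0.19, edgeR adjusted p = 5.0e-06), and was counted in all 3 KO libraries. The desaturase gene FADS1 had 3, 0 and 4 KO counts and was 33.4-fold lower, or 55.4-fold without KO replicate 3 and 22.3-fold without KO replicate 2. FADS2 had 0, 0 and 4 and was 128-fold lower, on counts of KO replicate 3 alone. ACLY, SCD and ELOVL5 were at 0 in KO and at least 232-fold, 178-fold and 119-fold lower.

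**Figure D4:**
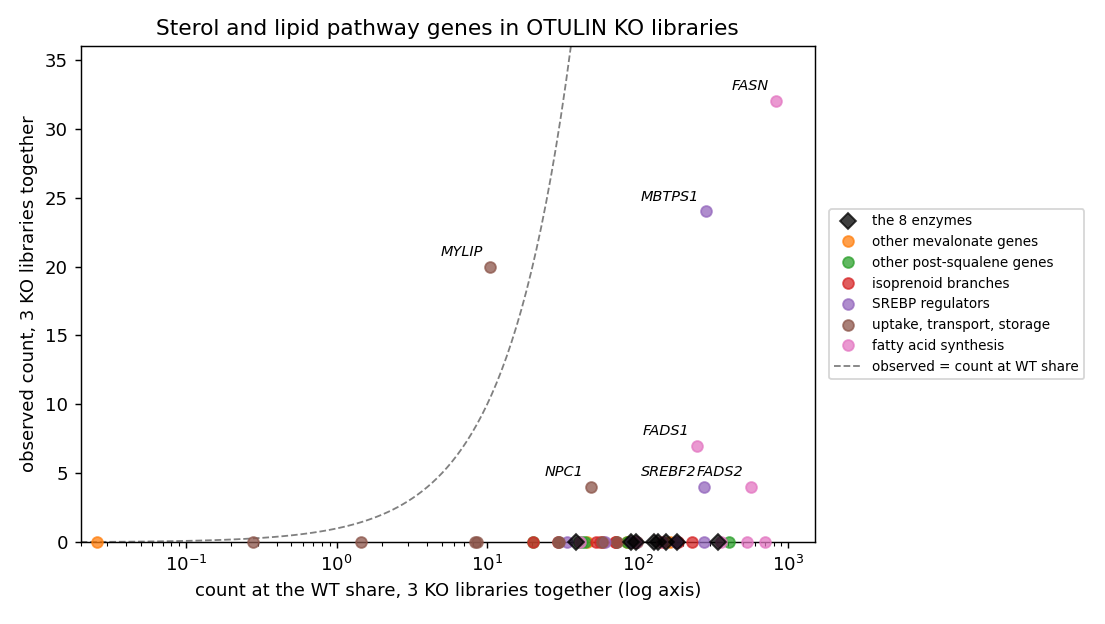
Observed counts over the 3 KO libraries together (vertical axis, linear) against the count at the WT share (horizontal axis, log scale) for the 8 enzymes (diamonds) and 49 of the 52 genes of 6 related lists (circles; 3 genes, 2 of them with KO counts, are not shown). The 8 enzymes lie at 0 with 39.1 to 343 counts at the WT share, and of the 7 named genes with KO counts only MYLIP lies above the dashed line of equal values.

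The 3 genes whose log2(FPKM + 1) profile over the 6 libraries lay nearest to the mean profile of the 8 enzymes were ASH2L, CISD2 and TOR1AIP1. Their Euclidean distances were 0.019, 0.019 and 0.027, and their WT means 8.80 ± 0.096, 8.80 ± 0.23 and 8.85 ± 0.23 FPKM. Since all 3 were at 0 in KO, likeness over these 6 libraries is a likeness of WT level.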

How the data were processed

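Poly(A) RNA of 3 OTULIN KO and 3 WT libraries was analysed, grouped by their titles. The authors deposited whole-number counts per gene, not normalized, and FPKM values, per the file headers. Per the submitters' processing notes, cutadapt 1.9, HISAT2 2.0.4, StringTie 1.3.4d, DESeq2 and hg38 were used, without saying which did what. The annotation release is not given in the sources used here.

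Counts were tested with edgeR 4.0.16 (glmQLFit, glmQLFTest, R 4.3.3), with TMM factors on library totals and genotype as the one term, over genes averaging 1 FPKM or more in the 6 libraries. A call is a Benjamini-Hochberg adjusted p below 0.05. SE is the log2 change over the square root of F. The floor is 3 counts over the KO group. The script was tested on simulated counts. Alternatives were other filters, median-ratio scaling, library totals, DESeq2 1.42.0, limma 3.58.1 on log2(FPKM + 1) and log2(FPKM + 0.1), a replicate block, each library left out and, chosen after seeing the data, GENCODE 29 lengths and the reads of an overlapping locus given to CYP51A1. Python 3.11.15, numpy 2.4.6, scipy 1.17.1, pandas 2.3.3 and matplotlib 3.10.9 did the rest.

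The members and lists were chosen with earlier results of these data known. Named were the 8 members, their copies, per list the 4 genes highest in WT FPKM and any with at least 3 KO counts, and the 3 genes of nearest profile; some genes that meet this rule are not reported here.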

Additional observations from a re-analysis of the deposited data

How the results depend on the processing

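The 7 calls among the enzymes were also made with median-ratio scaling, library totals, DESeq2 and both limma fits. The number was also 7 in each fit that left out 1 library. All 7 enzymes were at 0 in every KO library, so these fits could hardly change the calls and add no separate evidence for them. Without the filter 8 were called, and with a mean of at least 5 FPKM 4, the number tested there. In the 6 lists, 45 lower calls became 44 to 45 with 1 library left out and 16 at 5 FPKM, where fewer genes were tested. Over all genes, 9519 lower calls became 3851 at that filter, and 9387 to 9534 with 1 library left out; 826 higher calls became 792 to 847. MYLIP turned to -0.017 on the log2 scale with median-ratio scaling and to -0.016 in DESeq2, and was called higher in both limma fits. The FDPS to MVK ratio in WT was 21.4, 20.4 to 22.2 with 1 WT library left out, 21.4 with FPKM rescaled to TPM and 17.9 with GENCODE 29 lengths, which replace the authors' lengths. Rescaling to TPM multiplies both genes of a library by the same factor, so it could hardly move this ratio. The sum of the enzymes, at least 389-fold lower, was 10.3-fold lower with the reads of ENSG00000289027 given to CYP51A1.

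The replicate block left 0 of the 7 enzymes called (adjusted p 0.080 to 0.094) while their fitted changes stayed (FDPS at -15.16 on the log2 scale in both fits, a value that depends on the prior count), 1 lower call in the lists, and 289 lower and 452 higher calls over all genes. Same-numbered deviations from the group means correlated at 0.012, -0.007 and 0.029, and KO replicates 1 and 2 correlated better with another number. Of the tested genes, 71.3% were at 0 in every KO library and so had no KO deviation. These correlations therefore cannot show whether the replicate numbers pair the samples. Depth limits KO values: below 1.25 CPM a level could not be told from 0.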
